A study of Mus musculus with 6 samples.

Results

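The 34 genes described here encode the junctions that join epithelial cells and the filaments anchored to them, and were taken by gene symbol from a table of 57180 genes. They comprise 12 tight junction genes, 5 adherens junction genes, 6 desmosome genes, 3 gap junction genes, 3 intermediate filament genes and 5 genes of the actin cytoskeleton. All 34 passed the filter on low counts, which left 14151 genes in the test.

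Hepatocytes are polarised epithelial cells. Tight junctions, made of claudins, occludin and the scaffold proteins beneath them, seal the bile canaliculus from the blood-facing membrane. Adherens junctions couple cadherins through catenins to actin, desmosomes couple desmosomal cadherins through plakoglobin, plakophilins and desmoplakin to keratin, and gap junctions pass small molecules between neighbouring cells through connexin channels. The keratin network of the hepatocyte is built from keratin 8 and keratin 18 alone, which pair with each other.

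The RNA came from primary hepatocytes of male mice of C57BL/6 background, 8 to 10 weeks old, in 2 groups of 3 libraries each. The LOXP group, the controls, came from STING floxed mice. The KO group came from mice with a hepatocyte-specific STING knockout (STINGLKO), in which the floxed alleles were combined with Cre under the Albumin promoter. That promoter is active in hepatocytes. Both groups received palmitic acid at 0.1 mM for 24 h after collagenase isolation, so no untreated culture enters the comparison and it bears on genotype under palmitic acid. Whether each library came from its own animal is not given in the sources used here, so p-values measure the spread between these libraries, which may be technical.

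The libraries held 14726983 to 18536985 counts each, of which the 34 genes took 2.04 to 2.39%. Sting1, the targeted gene, had 19, 16 and 23 counts in the LOXP libraries and 24, 23 and 15 in the libraries labelled KO. Its log2 fold change was -0.08 (SE 0.298, adjusted p = 0.883), so the labels are not checked by this gene; which exons were removed is not given in the sources used here, and every direction below rests on the labels. The hepatocyte markers with the highest level over the 6 libraries were Alb, Hpx and Apoa1. Their means were 7106, 2675 and 1115 FPKM (fragments scaled to gene length and library total). Not all markers were high or level between the groups: Hpx had means of 3802 FPKM in LOXP and 1548 in KO, and Pck1 3.05 and 0.318. The summed FPKM of the 17 hepatocyte markers found was 13960 to 15200 in LOXP and 10600 to 10770 in KO. By edgeR's test 13 of the 17 (76.5%) were lower in KO, beside 11.6% of all genes tested. Their median log2 fold change was -0.44, and their part in the results below was not tested.

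The proximal promoters of 5 genes are shown first. Gjb2, Cldn1 and Jup, lower in KO, and Krt8, higher in KO, kept direction and call in all 15 alternative settings given below. Each had 1 RefSeq start. Krt18, also higher, was added to complete the keratin pair, although its call was lost in 5 of those settings. Cdh1 and Tjp3, both lower, kept their calls too, but Cdh1 was not matched and Tjp3 had more than 1 start. Each is the 250 bases before the RefSeq gene start on build GRCm38.p6, 5′ to 3′ on the gene's strand, whereas the deposited tables use GRCm39. Capitals mark the letters CACCTG (an E-box), TGANTCA (the AP-1 motif), GGGCGG (a GC box) or TATAAA on either strand, motifs that were chosen after the values were seen. The windows are Gjb2 at chr14:57104703-57104952 (minus strand), Cldn1 at chr16:26371840-26372089 (minus), Jup at chr11:100397791-100398040 (minus), Krt8 at chr15:102004343-102004592 (minus) and Krt18 at chr15:102027966-102028215 (plus).
Gjb2: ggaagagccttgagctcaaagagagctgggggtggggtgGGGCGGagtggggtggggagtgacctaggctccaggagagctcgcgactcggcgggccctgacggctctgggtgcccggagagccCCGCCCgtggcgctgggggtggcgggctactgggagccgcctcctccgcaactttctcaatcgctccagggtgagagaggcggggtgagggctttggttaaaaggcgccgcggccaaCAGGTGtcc
Cldn1: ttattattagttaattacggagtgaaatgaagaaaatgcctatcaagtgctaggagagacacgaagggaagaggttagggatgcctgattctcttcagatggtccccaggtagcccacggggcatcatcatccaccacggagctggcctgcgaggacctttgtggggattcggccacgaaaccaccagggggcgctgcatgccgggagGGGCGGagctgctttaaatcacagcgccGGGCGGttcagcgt
Jup: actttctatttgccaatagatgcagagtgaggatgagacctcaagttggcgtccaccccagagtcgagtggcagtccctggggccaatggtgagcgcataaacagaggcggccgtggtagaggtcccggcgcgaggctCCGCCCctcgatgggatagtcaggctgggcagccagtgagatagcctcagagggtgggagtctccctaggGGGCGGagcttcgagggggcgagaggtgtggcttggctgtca
Krt8: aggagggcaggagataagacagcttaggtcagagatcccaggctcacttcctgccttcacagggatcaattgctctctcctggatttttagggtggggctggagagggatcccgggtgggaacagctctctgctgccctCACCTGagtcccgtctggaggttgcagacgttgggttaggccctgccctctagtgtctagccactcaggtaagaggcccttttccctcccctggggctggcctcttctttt
Krt18: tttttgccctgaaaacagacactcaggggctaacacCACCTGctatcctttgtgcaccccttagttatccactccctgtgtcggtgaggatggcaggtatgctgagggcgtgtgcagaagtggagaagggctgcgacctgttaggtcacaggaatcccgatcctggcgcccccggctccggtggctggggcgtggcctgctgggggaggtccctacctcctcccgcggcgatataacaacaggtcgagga
The 3 genes shown here that were lower each carry GC-box letters, and both keratin windows carry CACCTG and no GC box. Gjb2 carries CACCTG as well, on the other strand. The RefSeq table matched 25 of the 34 genes. Among the lower genes Cdh1, Marveld3 and Dsc2 had no match, and among the higher genes Pkp2, so their promoters were not looked at. GC-box letters stood in 17 of these 25 (68%) and in 35.4% of all 27025 gene symbols with windows of this length. CACCTG stood in 9 (36%) against 19.4%. A gene counted if any of its windows held the letters, and the 27025 were not limited to genes expressed here. TGANTCA stood in 4 (16%) against 7.82%, and TATAAA in 6 (24%) against 14.3%. By direction, GC-box letters were in 4 of the 6 matched genes that were lower in KO (Cldn1, F11r, Gjb2 and Jup) and in 3 of the 5 that were higher (Cgn, Cldn12 and Dsp). CACCTG was in 3 of the 6 (F11r, Gjb2 and Tjp3) and in 2 of the 5 (Krt8 and Krt18). Among these matched genes, which leave out Cdh1, the letters did not separate the directions. A match is a description of these letters in this window.

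Across the 34 genes, 9 were lower and 6 higher in KO at an adjusted p under 0.05 by edgeR's quasi-likelihood test, and 19 did not pass. The lower genes made up 26.5% of the list, against 11.6% of all genes tested that were lower, and the higher genes 17.6%, against 11.5% of all genes that were higher. The 9 lower genes had a median change of 1.02 in size on the log2 scale and the 6 higher genes one of 0.22. Not every fall was larger: Cldn2 (-0.42), F11r (-0.21) and Dsc2 (-0.20) lay in the size range of the rises, 0.20 to 0.44. By the study's stricter rule, which also asks for a log2 change beyond 1 in size and a group mean above 1 FPKM, Cldn1, Tjp3, Cdh1 and Gjb2 were lower, and the 6 higher genes all changed by less, against 1.49% of all genes lower and 0.558% higher. Every KO library lay below every LOXP library for 12 of the 34 genes and above for 7, against 20.3% and 20.4% of all genes tested. The median log2 fold change of the list was -0.06, beside -0.002 for all genes tested. When the libraries were instead scaled to Actb, itself among the 34, the split was 5 lower and 2 higher. With 1 library left out, 5 genes were lower without LOXP replicate 3 or KO replicates 1 or 2, and 1 to 3 were higher without LOXP replicates 2 or 3 or any KO library.

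**Figure D1:**
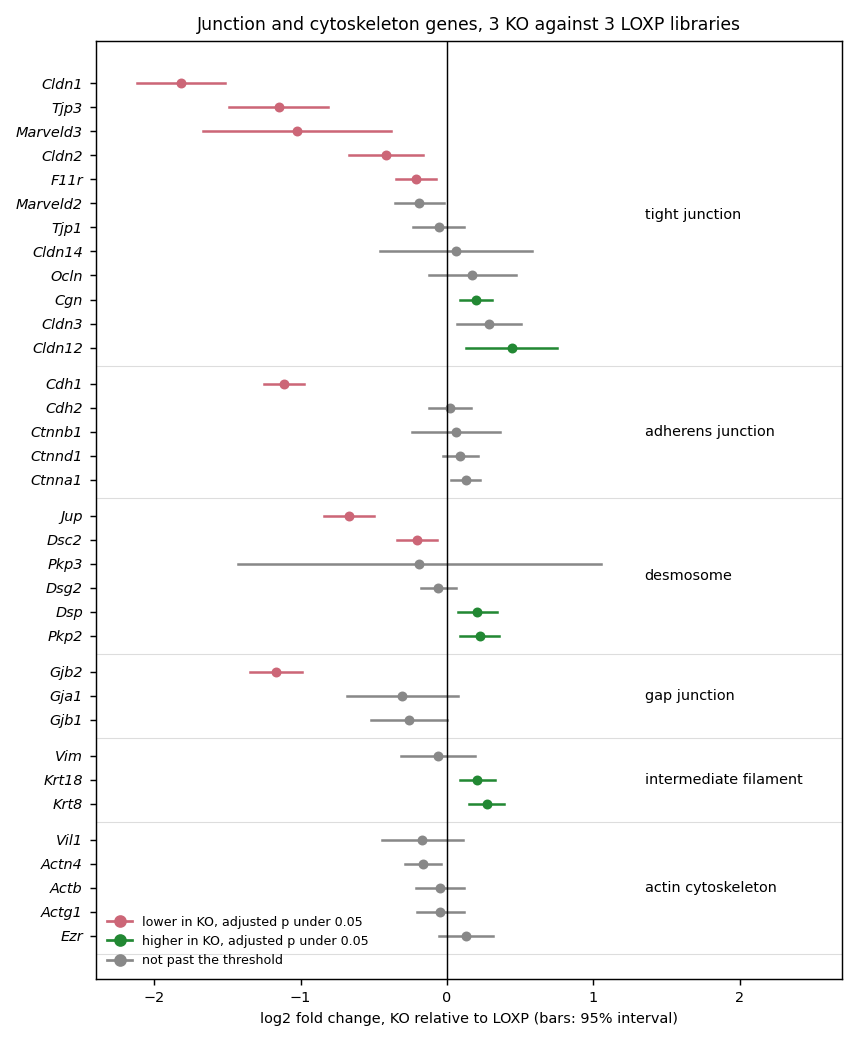
Log2 fold change of each gene, KO relative to LOXP (x axis), with its 95% interval, ordered by structure (3 libraries per group). Cldn1, Tjp3, Marveld3, Cdh1 and Gjb2 lie at or below -1.02, while the 6 genes that were higher lie between 0.20 and 0.44.

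In bulk RNA a lower value can mean fewer cells of a type or less RNA per cell, and these cannot be told apart here. Summed over each list, markers of other liver cells were low in FPKM beside those of hepatocytes. Of 12 cholangiocyte markers 5 were tested, 3 were lower (Cldn4, Sox9 and Spp1) and 1 higher (Krt19), and their summed FPKM was 123.7 to 144.8 in LOXP and 65.7 to 77.2 in KO; Cldn4, Sox9 and Spp1 led it, with Cldn4 alone at means of 111.1 and 55.8. Of these 12, Krt7, Krt19, Cldn4 and Cldn7 are also counted among the other junction and cytoskeleton genes below. Krt19 was at means of 0.888 FPKM in LOXP and 1.61 in KO, Sox9 at 13.4 and 7.49, and Spp1 at 7.14 and 1.78. Krt7 and Epcam had mean FPKM of at most 0.0341 and 0.133 in either group. Of the macrophage markers 14 were tested and 2 (14.3%) were lower (Cd68 and Mpeg1), beside 11.6% of all genes tested. DESeq2 called 2 lower and 1 higher. Cd5l had every KO library above every LOXP library without passing edgeR's test (log2 0.94, adjusted p = 0.0853). The macrophage sums were 67.1 to 84.7 in LOXP and 53.6 to 63.3 FPKM in KO, led by Cd68, Lyz2 and Mpeg1. Of the endothelial markers 10 were tested and 1 (10.0%), Stab2, was lower, with 3 at an unadjusted p under 0.05 by edgeR. Of the 10, 9 had a negative log2 fold change, with a median of -0.24. The endothelial sums were 33.8 to 36.1 FPKM in LOXP and 30.9 to 33.9 in KO, led by Cdh5, Lyve1 and Eng. Of the stellate markers 12 were tested and did not pass edgeR's test, with 2 at an unadjusted p under 0.05 and 0 by DESeq2 (19.7 to 22.1 against 20.7 to 22.5 FPKM, led by Ecm1, Sparc and Dcn), and the lymphocyte and mesothelial lists had 4 and 49 counts in all. The part of these markers in the results was not tested.

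The tight junction genes divided: Cldn1, Cldn2, Tjp3, F11r and Marveld3 were lower in KO, Cldn12 and Cgn were higher, and 5 did not pass. Cldn1, a sealing claudin at chr16:26175392-26190591 on GRCm39, stood at 33.4, 28.2 and 31.4 CPM (counts scaled to a common library total with TMM factors) in LOXP and at 10.5, 7.88 and 8.05 in KO. The groups did not overlap, and the fall was the largest of the 34 genes (log2 fold change -1.82, 95% interval -2.12 to -1.52, adjusted p = 8.3e-05). Tjp3, which encodes the scaffold protein ZO-3, had 18.5, 26.3 and 19.2 CPM in LOXP and 9.56, 9.93 and 9.27 in KO. All 3 KO libraries were below all LOXP libraries (log2 fold change -1.15, SE 0.147, adjusted p = 0.00118). Its annotated locus shares 40 positions with Apba3, whose log2 fold change was 0.12 (adjusted p = 0.622). Both genes kept direction and call in all 15 alternative settings, with adjusted p of at most 9.39e-04 for Cldn1 and 0.00763 for Tjp3.

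The other tight junction calls were less stable. Cldn2, which forms a cation and water pore, had 26.6, 25.4 and 33.2 CPM in LOXP and 21.2, 21.2 and 21.5 in KO (log2 fold change -0.42, SE 0.111, adjusted p = 0.0278). The groups did not overlap, but over the alternatives the adjusted p ran from 0.0142 to 0.106, and it was over 0.05 without LOXP replicate 3 (log2 -0.29) or without any 1 of the KO libraries. In all 8 of the 15 alternatives lost the Cldn2 call, the others being limma on FPKM with either pseudocount, a filter of 1 count and scaling to Actb. F11r, which encodes the junctional adhesion molecule JAM-A, had 413.2, 464.1 and 422.0 CPM in LOXP and 361.6, 383.9 and 376.4 in KO (log2 fold change -0.21, adjusted p = 0.0326). All its KO values were lower, and the adjusted p ran from 0.0188 to 0.421 and was over 0.05 without LOXP replicates 2 or 3 or any KO library, with a filter of 1 count and with scaling to Actb. Marveld3, a membrane protein of the occludin family, fell from 3.55 ± 0.505 to 1.73 ± 0.626 CPM (SD, n = 3 each; log2 fold change -1.02, edgeR adjusted p = 0.0321). It rested on 251 counts over the 6 libraries, and without LOXP replicates 1, 2 or 3 or KO replicates 1 or 2 its adjusted p was over 0.05, as it was with a filter of 1 count and with scaling to Actb, 8 of 15 alternatives in all (0.0238 to 0.0923 over the alternatives, log2 fold change -1.29 to -0.78 with 1 library left out).

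The 2 tight junction genes that were higher changed by 0.20 and 0.44 on the log2 scale. Cgn, which encodes the cytoplasmic linker cingulin, had 435.5, 417.4 and 405.2 CPM in LOXP and 478.9, 474.0 and 491.8 in KO (log2 fold change 0.20, SE 0.0486, adjusted p = 0.0203). All KO values were above all LOXP values; its adjusted p, from 0.0162 to 0.143 over the alternatives, was over 0.05 without LOXP replicates 2 or 3 or any KO library and with scaling to Actb. Cldn12, an atypical claudin, had 124.3, 118.7 and 140.0 CPM in LOXP and 135.4, 185.0 and 199.7 in KO (log2 fold change 0.44, adjusted p = 0.0474). The groups overlapped at KO replicate 1, and the adjusted p ran from 0.00421 to 0.148, over 0.05 without any 1 of the LOXP libraries or KO replicates 2 or 3. The call was also lost with upper-quartile factors, a filter of 1 count and limma on FPKM with either pseudocount, 9 of 15 alternatives in all. Of the 5 genes that did not pass, Cldn3 had every KO library above LOXP (343.5 ± 39.6 and 418.7 ± 38.6 CPM, log2 fold change 0.29, edgeR adjusted p = 0.0637, and 0.0228 to 0.203 over the alternatives, under 0.05 in 4 of them, among them DESeq2 and limma on FPKM), and Marveld2, or tricellulin, every KO library below (log2 fold change -0.19, adjusted p = 0.0983). Ocln (log2 0.17, 95% interval -0.12 to 0.47), the ZO-1 gene Tjp1 (-0.06, -0.23 to 0.12) and Cldn14 (0.06, -0.46 to 0.58) overlapped between the groups.

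Per gene length the claudin pool was mostly Cldn3, and its makeup differed between the groups while its size did not move beyond the spread. Summed over the 24 claudin genes in the table it came to 407.1 ± 40.5 FPKM in LOXP and 416.1 ± 33.1 in KO. Cldn3 made up 66.0 ± 0.858% of it in LOXP and 80.8 ± 0.507% in KO. Cldn4, which is outside the 34 genes, made up 27.3 ± 0.800% and 13.4 ± 0.815%. The share of Cldn1 was 1.03 ± 0.190% and 0.293 ± 0.0706%, so the claudin with the largest fall was a small part of the pool. Cldn12 took 2.10 ± 0.221% and 2.84 ± 0.493%, and Cldn2 1.69 ± 0.208% and 1.27 ± 0.110% (SD, n = 3 libraries for each share). These shares are a description and were not tested.

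**Figure D2:**
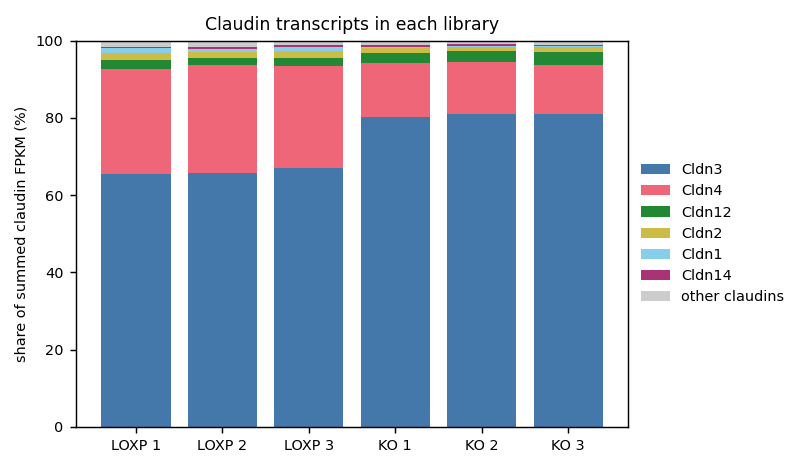
Share of the summed claudin FPKM (y axis, %) taken by each claudin gene in each of the 6 libraries. Cldn3 fills a mean of 66.0% of the bar in LOXP and 80.8% in KO, and the Cldn4 band goes from 27.3% to 13.4%.

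Of the 5 adherens junction genes, Cdh1 was the only one past edgeR's test. Cdh1, or E-cadherin, the epithelial cadherin at chr8:107329983-107396878, stood at 401.0, 408.1 and 395.8 CPM in LOXP and at 192.4, 193.8 and 171.7 in KO. The 3 KO libraries lay far below the LOXP libraries, a fall of 53.7% (log2 fold change -1.11, 95% interval -1.25 to -0.97, adjusted p = 2.08e-05). It held in all 15 alternatives, with log2 values from -1.14 to -1.05. Cdh2, or N-cadherin, the other classical cadherin of hepatocytes, had 125.8, 117.7 and 113.6 CPM in LOXP and 121.8, 123.7 and 116.4 in KO. The values overlapped (log2 fold change 0.02, 95% interval -0.12 to 0.16, adjusted p = 0.860). Of the catenins that tie cadherins to actin, Ctnna1 had every KO value above LOXP without passing the test (log2 0.13, adjusted p = 0.0661, and 0.0249 to 0.278 over the alternatives, under 0.05 with limma on FPKM). Ctnnb1, or β-catenin, gave 0.06 (95% interval -0.24 to 0.36) and Ctnnd1, or p120, 0.09 (-0.03 to 0.21). Summed over the 5 genes, the level was 197.5 to 207 FPKM in LOXP and 168.4 to 172.7 in KO.

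Of the 6 desmosome genes, Jup and Dsc2 were lower, Dsp and Pkp2 higher, and Dsg2 and Pkp3 did not pass. Jup, which encodes plakoglobin, a catenin found in both desmosomes and adherens junctions, lies at chr11:100259784-100288589. It had 125.3, 106.2 and 121.4 CPM in LOXP and 74.1, 74.0 and 73.7 in KO. The KO values were close to each other and all below LOXP (log2 fold change -0.67, SE 0.0743, adjusted p = 5.95e-04), and the call held in all 15 alternatives, with adjusted p of at most 0.00461. Desmoplakin, the Dsp product that binds keratin, went the other way at the RNA level: 403.3, 369.1 and 355.7 CPM in LOXP and 437.7, 423.8 and 441.2 in KO. Every KO library was above every LOXP library (log2 fold change 0.21, adjusted p = 0.0343). Pkp2, a plakophilin of the desmosomal plaque, rose from 125.4 ± 4.70 to 146.5 ± 4.80 CPM (SD, n = 3 each; log2 fold change 0.22, edgeR adjusted p = 0.0256). Dsc2, a desmosomal cadherin, fell from 97.7 ± 3.97 to 84.8 ± 1.67 CPM (SD, n = 3 each; log2 fold change -0.20, edgeR adjusted p = 0.0429).

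The 3 small desmosome calls depended on the libraries and on the method. For Dsp and for Dsc2 the adjusted p was over 0.05 without LOXP replicates 2 or 3 or any KO library, and ran from 0.0110 to 0.140 for Dsp and from 0.0287 to 0.472 for Dsc2 over the alternatives. The Dsc2 call was lost in 11 of 15 alternatives, DESeq2 and limma on FPKM among them, and with a filter of 1 count or scaling to Actb both the Dsp and the Dsc2 call were lost. For Pkp2 it was over 0.05 without LOXP replicate 3 or KO replicates 1 or 2 and with scaling to Actb (0.0110 to 0.121). Dsg2, the main desmoglein of simple epithelia, stayed within the spread of the libraries (log2 fold change -0.06, 95% interval -0.18 to 0.06). Pkp3 had 77 counts in all, too few to show a change (log2 -0.19, 95% interval -1.43 to 1.05). The summed level of the 6 genes was 111.1 to 120.9 FPKM in LOXP and 117.1 to 120 in KO.

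The gap junction genes were led by Gjb2, which encodes connexin 26 and lies at chr14:57336057-57342159. Its values were 98.9, 101.8 and 115.3 CPM in LOXP and 48.2, 47.5 and 45.2 in KO. The groups stood well apart (log2 fold change -1.17, 95% interval -1.34 to -0.99, adjusted p = 5.58e-05), in all 15 alternatives. Gjb1, or connexin 32, with which connexin 26 shares hepatocyte gap junctions, had 41.0, 49.4 and 57.1 CPM in LOXP and 40.4, 40.9 and 42.0 in KO. KO replicate 3 lay above LOXP replicate 1, so the groups overlapped (log2 fold change -0.26, 95% interval -0.52 to 0.00, adjusted p = 0.140). Without LOXP replicate 1 its adjusted p was 0.0204, in a range of 0.0204 to 0.404 over the alternatives. Gja1, or connexin 43, was low at 4.61 to 7.32 CPM across the libraries (log2 -0.30, adjusted p = 0.232). The 3 genes summed to 65.6 to 81.1 FPKM in LOXP and 44.2 to 44.8 in KO.

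Both hepatocyte keratins were higher in KO. Krt8, at chr15:101905133-101912917, had 6289, 6521 and 7060 CPM in LOXP and 7901, 8264 and 7793 in KO. All KO values were above all LOXP values (log2 fold change 0.27, SE 0.0535, adjusted p = 0.00860), and the call held in all 15 alternatives, with adjusted p of at most 0.0307. Krt18, 23.7 kb away at chr15:101936615-101940462, had 5468, 5506 and 6076 CPM in LOXP and 6396, 6737 and 6543 in KO. The groups did not overlap (log2 fold change 0.21, SE 0.0528, adjusted p = 0.0243), although the adjusted p ran from 0.0140 to 0.0785 and was over 0.05 without LOXP replicates 1 or 2 or KO replicates 2 or 3 and with scaling to Actb. Reads of Krt8 can be shared with its near-identical copy Krt8-ps, which held 10.3 to 11.2% of the counts of both in each library (log2 fold change 0.29, adjusted p = 0.0330). That of Krt8-ps ran from 0.00874 to 0.113 and was over 0.05 without LOXP replicates 1 or 2 or KO replicates 2 or 3 and with a filter of 1 count. Vim, the mesenchymal intermediate filament, was far lower and overlapped between the groups (39.9 to 53.8 CPM, log2 -0.06, adjusted p = 0.745).

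**Figure D3:**
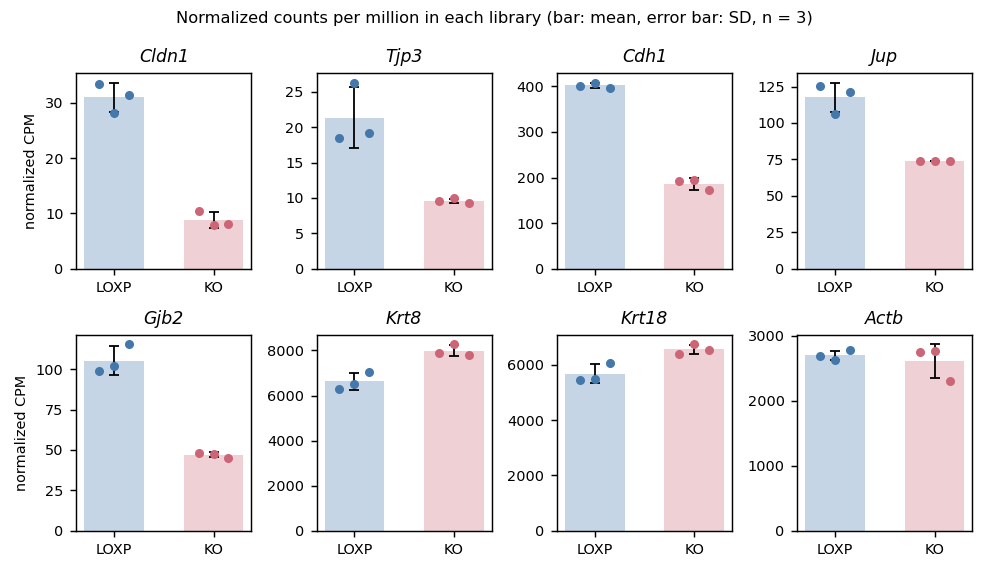
Normalized CPM (y axis, from 0) in each library for 8 of the genes, with the mean as a bar and the SD as an error bar (n = 3 per group). Cldn1, Tjp3, Cdh1, Jup and Gjb2 are lower in every KO library, Krt8 and Krt18 higher, and Actb overlaps.

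None of the 5 actin genes passed edgeR's test or DESeq2's, and 1, Actn4, had an unadjusted p under 0.05. Actb had 2684, 2627 and 2772 CPM in LOXP and 2746, 2761 and 2308 in KO. KO replicate 3 was the low library and the others lay together (log2 fold change -0.05, 95% interval -0.21 to 0.11, adjusted p = 0.673). Actg1, the other cytoplasmic actin, gave -0.05 (95% interval -0.20 to 0.11), and 0.0212 with libraries scaled to Actb. Actn4, which crosslinks actin, had 717.3, 689.9 and 688.1 CPM in LOXP and 588.7, 652.7 and 630.1 in KO. All KO values were lower (log2 -0.16, SE 0.0529, adjusted p = 0.0576, and 0.0443 to 0.591 over the alternatives, the lowest with upper-quartile factors). The microvillar genes Vil1 (log2 -0.17, 95% interval -0.45 to 0.11) and Ezr (0.13, -0.05 to 0.31) did not pass.

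By level per gene length the list spanned from Pkp3 to Krt18. Krt18 had a mean of 4257 FPKM over the 6 libraries and Krt8 3729 FPKM, followed by Actb at 448 FPKM and Cldn3 at 302.5 FPKM. Cdh1 ranked 10th at 62.2 FPKM and Cldn1 29th at 2.67 FPKM. The 9 lower genes had a median level of 10.2 FPKM, the 6 higher genes 52.0 and the others 23.1. The summed level of the tight junction genes was 479 to 530.7 FPKM in LOXP and 538.9 to 598.6 in KO, of which Cldn3 was the most. The actin genes summed to 651.7 to 695.1 and 638.7 to 691.6 FPKM and the intermediate filament genes to 6960 to 7765 and 8587 to 8912 FPKM.

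**Figure D4:**
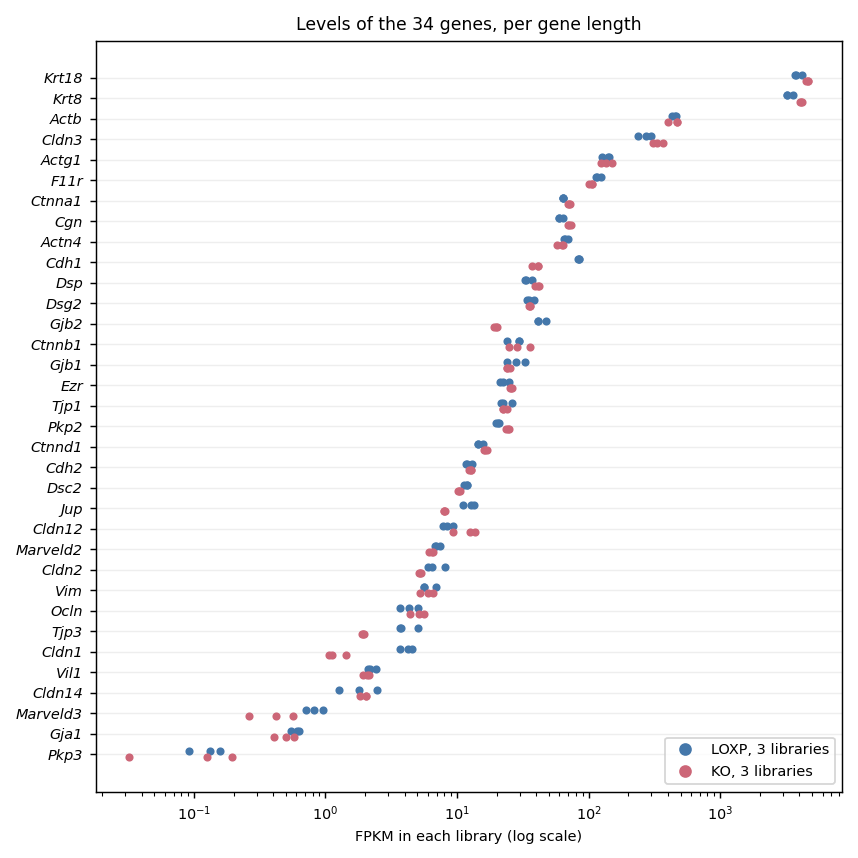
FPKM in each library (x axis, log scale) for the 34 genes ordered by mean level, with LOXP and KO libraries drawn as separate points. Krt18 (4257 FPKM) and Krt8 (3729 FPKM) stand about an order of magnitude above Actb (448 FPKM), and the points of Cdh1, Gjb2, Tjp3 and Cldn1 separate by group.

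Ratios of partner transcripts within a library do not depend on scaling between libraries, and 8 pairs were compared. With 3 libraries against 3, the 2-sided exact permutation test cannot go below p = 0.1, so no pair could pass 0.05. Cdh1 to Cdh2 went from 6.94 ± 0.341 in LOXP to 3.16 ± 0.117 in KO, a log2 difference of -1.13. Gjb1 to Gjb2 went from 0.656 ± 0.0619 to 1.24 ± 0.0675, so per gene length connexin 26 transcript was the higher in LOXP and connexin 32 in KO. In CPM, which is not scaled to length, Gjb2 stayed above Gjb1 in every library (KO means 47.0 and 41.1). Cldn1 to Cldn3 went from 0.0156 ± 0.00299 to 0.00363 ± 0.000899, Tjp1 to Tjp3 from 5.74 ± 1.36 to 11.9 ± 0.605, and Ctnnb1 to Jup from 2.25 ± 0.418 to 3.71 ± 0.661. The keratin pair moved little, with Krt8 to Krt18 at 0.855 ± 0.0127 and 0.894 ± 0.0172, though the libraries did not overlap. Each of these 6 had an exact p of 0.1 (adjusted over the 8 pairs, 0.133). Actb to Actg1 was 3.29 ± 0.122 and 3.31 ± 0.574 (exact p = 1), and Dsg2 to Dsc2 3.11 ± 0.288 and 3.42 ± 0.0488 (exact p = 0.2, adjusted 0.229); SD and n = 3 hold for every ratio.

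**Figure D5:**
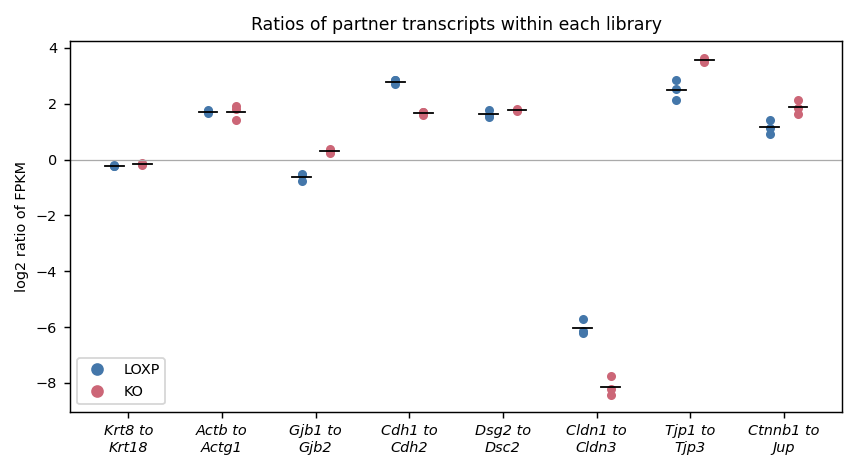
Log2 of the FPKM ratio of 8 partner pairs (y axis) in each library, with the group mean as a line. Cdh1 to Cdh2 moves from a ratio of 6.94 to 3.16 and Gjb1 to Gjb2 crosses from 0.656 to 1.24, whereas Krt8 to Krt18 and Actb to Actg1 stay near their LOXP level.

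Beyond the 34 genes, 136 other junction and cytoskeleton genes were in the table and 104 were tested. In KO 9 of them (8.65%) were lower and 31 (29.8%) higher, beside 11.6% and 11.5% of all genes tested, and their median log2 fold change was 0.07. The count of lower genes was 4 or 5 without LOXP replicate 2 or KO replicates 2 or 3, and that of higher genes 18 or 20 without KO replicates 1 or 2. The lower genes with the smallest adjusted p were Cldn4, Myl12b, a myosin light chain, Cdhr5, a microvillar protocadherin, Pls1, an actin bundler, and Cldn5. Cldn4 went from 204.7 ± 20.8 to 100.3 ± 9.84 CPM (SD, n = 3; log2 fold change -1.03, edgeR adjusted p = 2.81e-04) and Myl12b from 229.8 to 130.4 CPM (log2 -0.82, adjusted p = 0.00215). Cdhr5, Pls1 and Cldn5 changed by -0.48, -1.13 and -0.62 on the log2 scale (adjusted p = 0.0104, 0.0189 and 0.0202). The last 3 were the less stable: Cdhr5 lost its call with libraries scaled to Actb (adjusted p = 0.0714, range 0.00282 to 0.0714), Pls1 without LOXP replicate 1 (adjusted p = 0.0552, range 0.00286 to 0.0552) and Cldn5 without LOXP replicate 2 or any KO library and with scaling to Actb (range 0.00943 to 0.0742).

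The higher genes with the smallest adjusted p were Lmnb1, a nuclear lamin, Krt20, a keratin, Tubb5, a β-tubulin, Vasp, an actin regulator, and Ajuba, a LIM protein. Lmnb1 went from 18.0 ± 0.532 to 39.2 ± 2.49 CPM (SD, n = 3; log2 1.12, edgeR adjusted p = 8.1e-05) and Krt20 from 6.01 ± 1.68 to 23.1 ± 2.22 CPM (SD, n = 3; log2 1.93, edgeR adjusted p = 3.05e-04). Tubb5, Vasp and Ajuba rose by 0.49, 0.48 and 0.46 on the log2 scale (adjusted p = 3.57e-04, 5.61e-04 and 6.78e-04). By structure, 7 of 11 tested tubulin genes were higher, 6 of 10 intermediate filament genes higher, 11 of 41 actin genes higher and 5 lower, and 4 of 23 tight junction genes higher and 3 lower. Of the further adherens junction genes 2 of 11 were higher, of the desmosome genes 1 of 4, and of the gap junction genes 1 of 4 was lower; the rest did not pass.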

How the data were processed

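RNA was measured by bulk paired-end sequencing of 6 libraries of primary mouse hepatocytes (3 LOXP, 3 KO). The deposited table holds raw gene counts and the authors' FPKM values for each library. The submitters' processing notes name fastp, HISAT2, StringTie, edgeR and GRCm39, without versions. The deposited FPKM values followed from the count, the gene length and the library total, and so carry no TMM scaling.

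Counts were normalized with TMM factors (0.973 to 1.02), filtered with filterByExpr and tested with edgeR's quasi-likelihood test (edgeR 4.0.16, R 4.3.3; 2-sided, Benjamini-Hochberg over 14151 genes, no covariate). CPM were computed from the counts with TMM-adjusted library totals. Partner ratios used FPKM and an exact permutation test. Alternatives were DESeq2 1.42.0, other factors and filters, limma 3.58.1 on log2(FPKM + 1) and log2(FPKM + 0.1), a replicate block and leaving out each library; merging Krt8-ps with Krt8 and scaling to Actb were added after the data were seen. The fit was tested on simulated data. Every one of the 34 genes is named. Of 136 other junction and cytoskeleton genes, the 5 lower and 5 higher with the smallest adjusted p were named. Of each marker list the 3 with the highest FPKM were named. Further marker genes that are named were chosen after their values were seen. The genes and lists were chosen with earlier results of these data known.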

Additional observations from a re-analysis of the deposited data

How the results depend on the processing

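Of the 15 genes that were lower or higher in KO, 6 (Cldn1, Tjp3, Cdh1, Jup, Gjb2 and Krt8) kept direction and call in each of 15 alternatives, and 0 of the 15 reversed. DESeq2, upper-quartile factors, a filter of 10 counts in every library, the replicate block, limma on FPKM and the Krt8-ps merge left the numbers of lower and higher genes within 1.5 times those reported. Testing every gene with at least 1 count gave 5 lower genes, and scaling to Actb 5 lower and 2 higher. Under Actb scaling 4 of the other junction and cytoskeleton genes were lower and 24 higher, and of all genes 894 and 1078. The cause was not tested. The median log2 fold change of the list was -0.0174 with limma on log2(FPKM + 1), -0.0204 on log2(FPKM + 0.1) and -0.00284 after Actb scaling. Leaving out 1 library at a time, which gives fewer samples, 5 to 9 genes were lower and 1 to 4 higher, with a median of -0.088 to -0.037. Of the other junction and cytoskeleton genes 4 to 8 were lower and 18 to 27 higher. Of all genes 1052 to 1515 were lower and 922 to 1510 higher.

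Reversals were among genes not past the threshold. With 1 library left out the log2 fold change ran from -0.16 to 0.34 for Cldn14, -0.11 to 0.0204 for Tjp1, -0.0130 to 0.0587 for Cdh2, -0.0770 to 0.18 for Ctnnb1, -0.74 to 0.28 for Pkp3, -0.13 to 0.0367 for Vim, -0.0921 to 0.0339 for Actb, -0.11 to 0.0148 for Actg1 and -0.26 to 0.11 for Sting1, and Actg1 was at 0.0212 after Actb scaling. The replicate numbers gave no clear pairing of the libraries (correlations of deviations 0.146, 0.0719 and 0.0339). LOXP replicates 1 and 2 correlated best with the KO library of their own number, and LOXP replicate 3 did not. The fit with the replicate block called 7 genes lower and 7 higher, without Marveld3 and Dsc2 and with Cldn3. Pkp3 had no value under the filter of 10 counts in every library. Depth limited Pkp3 (77 counts) and Marveld3 (251 counts).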
